A study of Mus musculus with 3 samples.

Results

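The genes described here encode the mitochondrial ribosomal proteins, chosen as the protein-coding genes whose GENCODE mouse symbol begins with Mrpl or Mrps followed by a digit. Of 78 such symbols in release M21 the table gave a coding transcript row for 77, among 18121 protein-coding genes with such a row, and Mrpl32 was not analysed here. RNA was taken from dissociated cortical neurons of Swiss-Webster mouse embryos at day 16, an outbred stock, grown in neurobasal medium with B27, L-glutamine, penicillin and streptomycin. All 3 libraries belong to 1 group, labelled WT with no treatment, so comparisons are between genes within the same libraries. Separate cultures are not named for the libraries. Errors and p-values therefore cover the variation among these libraries alone, and it may be technical. Values are TPM, a share of reads per transcript length, of each gene's longest protein-coding transcript row, and errors are SD over libraries (n = 3).

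Mitochondria keep ribosomes of their own, which make the few respiratory chain subunits still encoded by mitochondrial DNA. The ribosomal RNAs come from mitochondrial DNA, but every protein of this ribosome is encoded in the nucleus, made in the cytosol and imported. Some of its proteins descend from bacterial ribosomal proteins and others were added during mitochondrial evolution, and the names do not always give the subunit: Mrps18a and Mrps30 sit in the large subunit, and Mrps36 belongs to the 2-oxoglutarate dehydrogenase complex and not to the ribosome. By structure the 77 genes fall into 50 of the large subunit, 26 of the small subunit and Mrps36.

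The libraries were neuronal with glia present. The neuronal markers Tubb3, Map2, Stmn2, Snap25 and Rbfox3 all stood above 10 TPM, with the lowest at 22.6 TPM, as did the 4 astrocyte markers, with Gfap the lowest at 16.6 TPM. The summed levels of the 3 microglial markers (0.867 to 1.65 TPM per library) and the 2 endothelial ones (0.215 to 0.293 TPM, Cldn5 listed at 0) were low. The summed level of the 4 oligodendrocyte lineage markers ran from 37.5 to 56.5 TPM. Most of it was Olig1 at 34.4 ± 2.91 and Pdgfra at 11.6 ± 6.72 TPM, while Mbp stood at 1.24 and Mog at 0.0286 TPM. The summed level of the astrocyte markers ran from 322 to 395 TPM and that of the 2 dividing-cell markers from 5.00 to 6.62 TPM. Their part in any result below was not tested, and in bulk RNA fewer cells of a type and less RNA per cell cannot be told apart.

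The mitochondrial ribosomal proteins were transcribed as a broad set of moderate genes. At a mean of at least 1 TPM, 76 of 77 were detected, or 98.7%, where 61.5% of all protein-coding genes were. At 10 TPM or more stood 48 of them, or 62.3%, against 26.4% of all protein-coding genes, and none reached 100 TPM. The median gene stood at 12.2 TPM, with the middle of the set between 7.83 and 17.7 TPM (quartiles), while the median over all protein-coding genes was 2.84 TPM and over the 11146 detected ones 8.11 TPM. The median was 12.1, 11.9 and 12.1 TPM in libraries 1, 2 and 3. Apart from Mrpl23, the reads behind 1 gene in 1 library ran from 134 to 2799, with a median of 887, 721 and 795 in the 3 libraries.

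**Figure D1:**
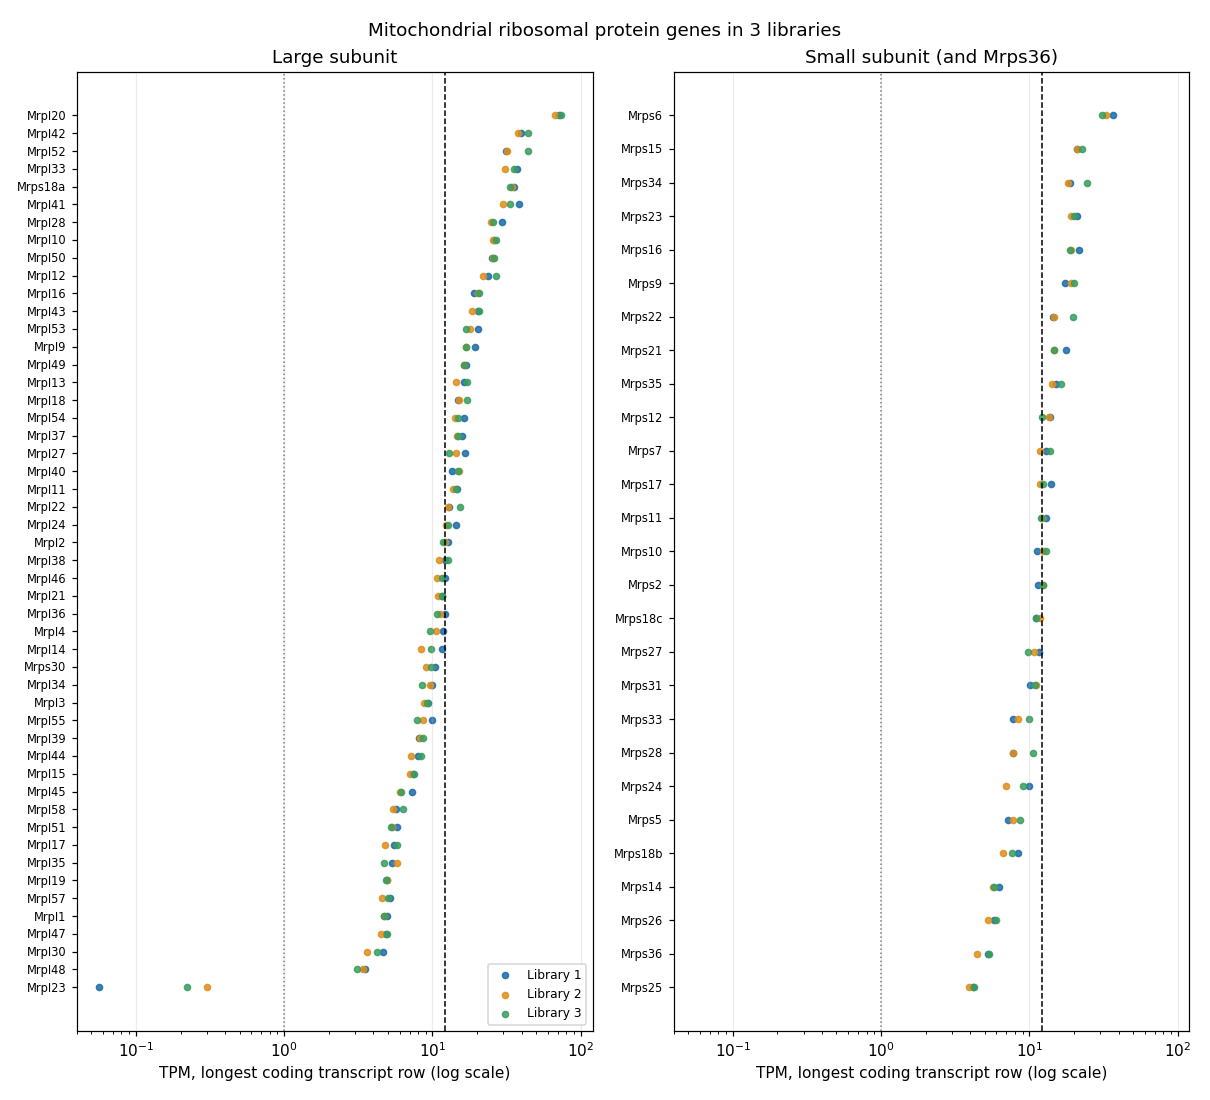
TPM of the longest coding transcript row of each gene in each library (log scale), with the 50 large subunit genes on the left and the 26 small subunit genes and Mrps36 on the right. The dashed line is the median gene at 12.2 TPM and the dotted line 1 TPM; Mrpl23 alone lies below 1 TPM, and Mrpl20 lies above all others in each library.

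In the large subunit the highest gene was Mrpl20, the counterpart of bacterial L20, an early binder of ribosomal RNA. Mrpl20 (mm10 chromosome 4, 155803521 to 155808831, plus strand) stood at 71.5, 67.3 and 74.0 TPM in libraries 1, 2 and 3. All of its values lay above those of any other member, and it was the 1 member among the highest 5% of protein-coding genes. Next came Mrpl42, a protein without a bacterial counterpart, at 39.8, 37.8 and 44.3 TPM. Mrpl52, also specific to mitochondria, was the most variable of these, at 31.3, 31.9 and 43.8 TPM, with library 3 apart. Mrpl33, the counterpart of bacterial L33, stood at 37.1, 30.8 and 35.4 TPM, Mrps18a at 35.4, 34.3 and 33.5 TPM and the mitochondria-specific Mrpl41 at 38.3, 29.8 and 33.1 TPM. The ranges of Mrpl52, Mrpl33, Mrps18a and Mrpl41 overlapped one another over the libraries, so their order is not fixed by these data. Mrpl42 lay above each of them in each library, though its range over the libraries overlapped those of Mrpl52 and Mrpl41.

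At the low end of the large subunit stood Mrpl23, the counterpart of bacterial L23 at the tunnel through which new proteins leave. Mrpl23 (chromosome 7, 142533012 to 142540747, plus strand) was at 0.0564, 0.301 and 0.221 TPM, which is 2, 9 and 7 reads. Of the 50-base words of its row 23.6% occur at no other annotated locus, the lowest share of any member, and it shares words with the pseudogene Mrpl23-ps1, whose own row was at 0.0673, 0 and 0.0755 TPM. The part of this shared sequence in the level of Mrpl23 was not tested, and the level is uncertain. The next lowest large subunit genes were Mrpl48 of the central protuberance at 3.34 ± 0.220 TPM, Mrpl30 at 4.15 ± 0.490, Mrpl47, the counterpart of bacterial L29, at 4.76 ± 0.217, Mrpl1 of the flexible stalk beside the exit site at 4.77 ± 0.120 and Mrpl57 at 4.91 ± 0.310 TPM. Each of these 5 stood far above Mrpl23 in each library.

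The small subunit spanned a narrower range. On the longest coding rows Mrps6, the counterpart of bacterial S6, led it in each library at 36.6, 32.7 and 30.9 TPM. Below it stood Mrps15 at 21.6 ± 1.06, the mitochondria-specific Mrps34 at 20.5 ± 3.55 and Mrps23 at 19.9 ± 0.902, Mrps16 at 19.7 ± 1.55 and Mrps9 at 18.8 ± 1.38 TPM. The range of Mrps34 overlapped those of Mrps15 and Mrps23, and Mrps15 lay above Mrps23 in each library by a small margin. The order turned on the highest rows, where Mrps23 stood at 38.4, 38.0 and 48.5 TPM. There it lay above Mrps6 and Mrps15 in each library, whose highest rows are their longest coding rows. The lowest were Mrps25 at 4.14, 3.93 and 4.25 TPM, Mrps26 at 5.67 ± 0.377 and Mrps14, the counterpart of bacterial S14, at 5.88 ± 0.292 TPM. Mrps18b followed at 7.58 ± 0.866, Mrps5 at 7.83 ± 0.737 and Mrps24, the counterpart of bacterial S3, at 8.61 ± 1.54 TPM, the last 2 being proteins of the path by which messenger RNA enters. Mrps36, outside the ribosome, stood at 5.29, 4.42 and 5.37 TPM, and 63.8% of its words are unique.

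The 3 proteins named for bacterial S18 occupy different places in the ribosome, and their genes did not share a level on the longest coding rows. Unique words made up 100% of Mrps18a, 69.1% of Mrps18b and 86.9% of Mrps18c. Mrps18c, of the bacterial S18 position, stood at 11.1, 11.9 and 11.1 TPM and Mrps18b, at another place of the small subunit, at 8.39, 6.67 and 7.69 TPM. Mrps18a, of the large subunit, was above both in each library, at 34.4 ± 0.986 TPM. On the highest row of each gene Mrps18a stayed at 34.4 TPM, while Mrps18b and Mrps18c stood at 20.3 and 20.3 TPM. Mrps30, the other large subunit protein with a small subunit name, stood at 9.72 ± 0.688 TPM.

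By position in the ribosome, the stalk genes included Mrpl12, whose protein is present in several copies in each ribosome and recruits translation factors. Mrpl12 stood at 23.6, 22.1 and 26.9 TPM, rank 11 among members by mean, and Mrpl10, which anchors it, at 26.2, 25.4 and 26.6 TPM. Mrpl11 at the base of the stalk stood at 14.2 ± 0.510 TPM. Of 6 exit tunnel genes 5 were detected and 2 reached 10 TPM, with a median of 5.93 TPM, while the 8 central protuberance genes, all detected, had a median of 11.7 TPM and 5 reached 10 TPM. The order of these regions turned on the highest rows, where the exit tunnel genes had a median of 16.3 TPM and the central protuberance genes 13.6 TPM, with 3 of the 6 and 2 of the 8 on longest coding rows over 2000 bases.

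On the longest coding rows the medians of the subunits were near one another. The large subunit stood at 12.4, 11.7 and 12.3 TPM and the small at 12.2, 11.99 and 12.2 TPM in the 3 libraries. On the log2(TPM + 1) scale the difference in medians was -0.004 ± 0.029, above 0 in 2 of 3 libraries (exact two-sided permutation of signs, p = 1). With 3 libraries no p below 0.25 is possible, so none of the 9 differences tested here could pass 0.05, and the smallest Benjamini-Hochberg adjusted p of the exact permutation over the 9 was 0.375. The size and sign of the subunit difference rested on the row choice: it was -0.16 ± 0.04 on the highest rows and -0.53 ± 0.17 with all rows of a gene summed, the large subunit being lower in 3 of 3 libraries under both, and 0.17 among rows of at most 2000 bases. Genes with bacterial counterparts (45 genes, median 12.2 TPM) and mitochondria-specific genes (31 genes, 12.004 TPM) differed by 0.04 ± 0.09 on the same scale, with bacterial counterparts higher in 2 of 3 libraries (exact permutation p = 0.75). This difference was 0.79 ± 0.05 with rows summed and -0.20 among rows of at most 2000 bases. A p of this size does not show that the groups are equal. Sums rise with the number of rows annotated for a gene and may count a read more than once, which was not tested. Mrpl20, for example, stood at 70.9 TPM on its longest coding row and at 375 TPM summed over 6 rows.

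The large subunit genes were the more spread out in these libraries. This comparison of spreads was added after the data were seen. The SD over genes of log2(TPM + 1) was 1.03 in the large subunit and 0.623 in the small one. Of the large subunit genes 30 of 50 lay within 2-fold of their median, and of the small subunit genes 22 of 26, or 84.6%. The SD of the large subunit was greater by 0.40 ± 0.03 in 3 of 3 libraries (exact permutation p = 0.25). Without Mrpl23 the excess was 0.28, and on the highest rows it was 0.48. Over the 77 genes together the SD was 0.908 and 52 lay within 2-fold of the median, or 67.5%, where 43.8% of detected protein-coding genes lay within 2-fold of their own median.

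Gene lists of other large assemblies were set beside this. The respiratory chain list pools several complexes and holds related genes such as Atp5g1, Atp5g2 and Atp5g3. The 32 proteasome genes, whose product degrades proteins, had a median of 57.7 TPM and the 76 nuclear-encoded respiratory chain genes 55.8 TPM, against 12.2 TPM for the mitochondrial ribosome. The respiratory chain median was 5.95, 5.82 and 5.75 log2(TPM + 1) units in the 3 libraries and that of the mitochondrial ribosomal genes 3.71, 3.69 and 3.72, giving a difference of -2.13 ± 0.10 (exact permutation p = 0.25). For the proteasome the difference was -2.16 ± 0.04 in the same direction in 3 of 3 libraries (exact permutation p = 0.25). On the longest coding rows Ndufa4 at 407 ± 16.8 and Atp5b at 325 ± 25.5 TPM were the highest respiratory chain genes. Atp5g2 at 0.209 ± 0.155 and Ndufab1 at 0.760 ± 0.0475 TPM were the lowest. Psmb1 at 124 ± 8.17 and Psma2 at 93.8 ± 4.90 TPM led the proteasome on these rows, with Adrm1 at 5.03 ± 0.412 and Psma3 at 12.9 ± 1.02 TPM lowest. Unique words made up 22.0% of Adrm1, 78.0% of Psma3, 88.9% of Atp5g2 and 87.7% of Ndufab1. These places rest on the row. On the highest rows Ndufab1 stood at 9.56 TPM, and Atp5g2 at 0.831 and Atp5l at 1.05 TPM were the lowest respiratory chain genes. In the proteasome Adrm1 at 9.87 and Psmb5 at 19.6 TPM were lowest there, with Psma3 at 28.2 TPM.

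Evenness differed between these gene lists. For the respiratory chain, spread between its pooled complexes was not separated from spread within them. The SD of log2 levels was 1.76 for the respiratory chain and 2.23 for the 80 cytosolic ribosomal proteins, compared with 0.908 for the mitochondrial ribosome. The mitochondrial ribosomal SD was 0.917, 0.896 and 0.923 in the 3 libraries and that of the respiratory chain 1.75, 1.75 and 1.79, a difference of -0.85 ± 0.02 (exact permutation p = 0.25). Against the cytosolic ribosome the difference was -1.32 ± 0.02 in 3 of 3 libraries (exact permutation p = 0.25). With the proteasome, at an SD of 0.910, the difference was -0.002 ± 0.024 and above 0 in 1 of 3 libraries (exact permutation p = 0.75).

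The complexes also differed in how much sequence they share with other loci. At least 90% of words were unique in 64 of 77 mitochondrial ribosomal, 57 of 76 respiratory chain and 23 of 32 proteasome genes, but in 7 of 80 cytosolic ribosomal genes, so the level and spread of the cytosolic ribosome rest mostly on rows with copies elsewhere. Its highest gene was Rplp1 at 488 ± 44.7 TPM and Rps15 followed at 243 ± 36.8 TPM, while Rps29 and Rpl23a stood at 0.260 ± 0.123 and 0.527 ± 0.104 TPM with 64.2% and 17.4% of words unique. Its median of 14.0 TPM was above that of the mitochondrial ribosome in 3 of 3 libraries, and below it on the highest rows, while against its 7 unique genes the mitochondrial ribosomal median was lower by far, with a difference of -2.73 ± 0.17. With only such unique genes in every list, the SD difference from the respiratory chain was -0.36, that from the 7 cytosolic genes -0.61, and the proteasome had the smaller SD, by 0.34.

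**Figure D2:**
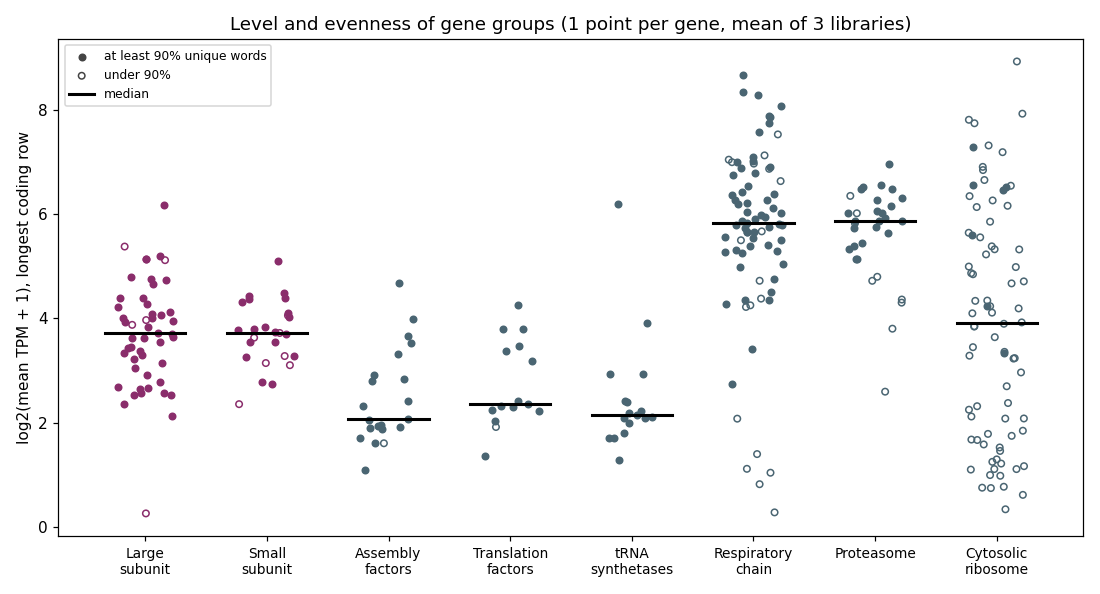
Mean level of each gene's longest coding row on the log2(TPM + 1) scale, by group, with the group median as a bar. Open circles are genes with under 90% unique 50-base words. The 2 subunits of the mitochondrial ribosome have medians of 3.71 and 3.73, above the 3 groups of accessory factors and below the respiratory chain and the proteasome, and 7 of the 80 cytosolic ribosomal genes are filled.

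Which transcript row stands for a gene decided many single levels. The table gives a row for each annotated transcript, 274 rows for the 77 genes, and 58 genes had more than 1 row. In 25 of 77 genes the highest row was at least 1.5 times the longest coding row, and in 10 at least 3 times, where 20% of detected protein-coding genes passed 1.5 times. Mrpl30 was the extreme: its longest coding row of 1757 bases stood at 4.61, 3.63 and 4.21 TPM, and a shorter coding row of 501 bases at 60.4 TPM, a ratio of 14.6. Mrps25 stood at 4.11 TPM on a row of 6073 bases and at 29.0 TPM on one of 565 bases annotated as a retained intron, Mrpl17 at 5.37 and 31.5 TPM, Mrpl15 at 7.31 and 34.9 TPM and Mrps26 at 5.67 and 20.8 TPM. In 31 genes the highest row was annotated as non-coding, such as a retained intron or a transcript subject to decay. Neither this count nor that at 3 times was made over all protein-coding genes, so neither shows a trait particular to these genes. Rows of a gene overlap and may hold the same reads, which was not tested. A higher row therefore does not show which transcript is the main product.

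The low members were mostly those with long rows. Of 21 genes with a longest coding row over 2000 bases 17 stood under 10 TPM, and of 56 shorter ones 12 did. Across the 77 genes row length and level had a Spearman's rho of -0.52, and across 11146 detected protein-coding genes -0.11, as descriptions over genes that share libraries. Reads per row, in contrast, rose with length (rho of 0.48 over the same genes). On the highest rows 12 genes stood under 10 TPM in place of 29, the median was 19.2 TPM, 62 lay within 2-fold of it, and 6 of the 12 lowest and 9 of the 12 highest genes were shared between both ways of choosing.

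**Figure D3:**
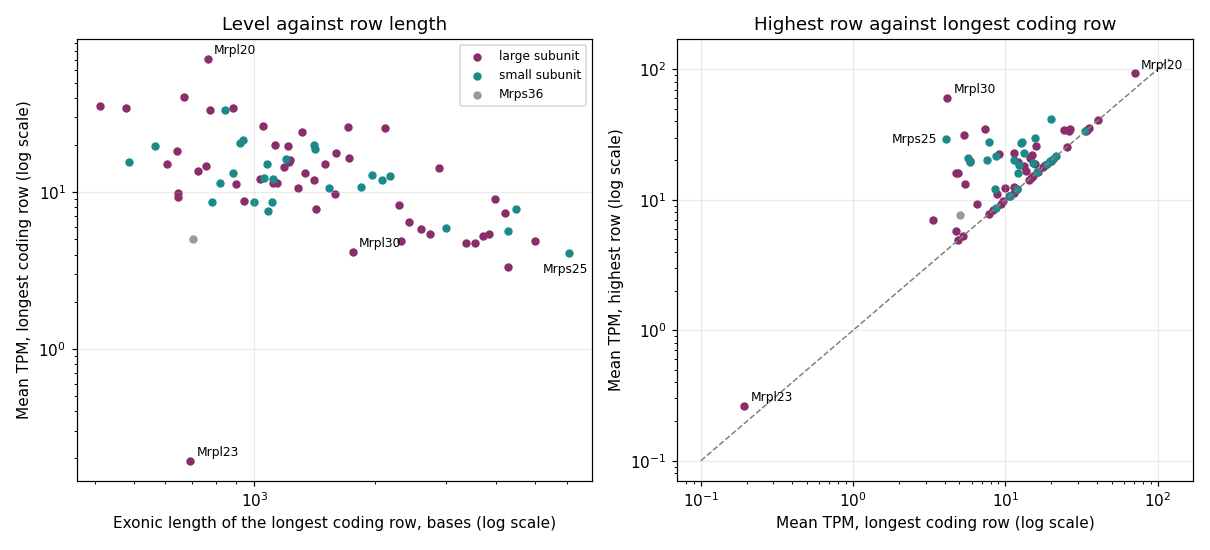
Left, mean TPM against exonic length of the longest coding row, and right, mean TPM of the highest row against that of the longest coding row, with the line of equality (all axes log scale; 1 point per gene, mean of 3 libraries). Rows over 2000 bases lie mostly under 10 TPM, and Mrpl30 lies farthest above the line, at 60.4 against 4.15 TPM.

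The remaining proteins of the ribosome carry other symbols. Chchd1 stood at 46.9, 42.0 and 50.6 TPM, above every member but Mrpl20 in mean, and Aurkaip1 at 27.3, 28.1 and 32.1 TPM. Ptcd3, which helps messenger RNA bind, stood at 15.5 ± 0.548, Dap3, which binds GTP, at 10.3 ± 1.24 and Gadd45gip1 of the large subunit at 4.81 ± 0.328 TPM. All 5 were detected and 4 reached 10 TPM.

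On the longest coding rows the genes that build and serve the ribosome stood lower. These rows had a median length of 1894 bases for assembly factors and 2623 for translation factors, against 1219 for members. Levels rest on the row here too: Slirp stood at 3.90 TPM on its longest coding row and at 30.8 TPM on its highest. Medians of these lists on the highest rows were not computed. Of 22 assembly factors listed 21 were measured and all were detected, with a median of 3.20 TPM, and 4 reached 10 TPM. Ngrn, needed for the large ribosomal RNA, stood at 24.5 ± 2.13 and the helicase gene Dhx30 at 14.8 ± 0.650 TPM, while the GTPase gene Gtpbp10 and the methyltransferase gene Nsun4 stood at 2.03 ± 0.0664 and 1.13 ± 0.0306 TPM. All 15 translation and messenger RNA factors were detected at a median of 4.15 TPM, from the RNA-stabilising Lrpprc at 18.2 ± 1.52 and the insertase gene Oxa1l at 12.9 ± 0.456 TPM to the release factor gene Mtrf1l at 1.56 ± 0.0683 TPM. Tufm, which encodes the elongation factor that brings transfer RNA, was at 2.77 ± 0.128 TPM, with 31.8% of its words unique. In each library the median of the assembly factors (3.19 to 3.65 TPM) and of the translation factors (3.94 to 4.35 TPM) lay below that of the mitochondrial ribosomal proteins (11.9 to 12.1 TPM).

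The 17 mitochondrial tRNA synthetases, all detected, had a median of 3.44 TPM on the longest coding rows, and 14 lay within 2-fold of it. The median length of these rows was 3336 bases. Lars2 stood apart at 82.8, 66.2 and 66.95 TPM, followed by Rars2 at 14.0 ± 1.34 TPM. Mars2 and Ears2 were lowest at 2.24 ± 0.190 and 1.42 ± 0.167 TPM. Yars2 stood at 3.24 TPM on its longest coding row and at 18.6 TPM on its highest. Of 11 genes for copying and transcribing mitochondrial DNA 10 were detected and none reached 10 TPM on the longest coding rows. There Ssbp1, which binds single-stranded DNA, and Tfam, which packages the mitochondrial genome, led at 8.32 ± 0.736 and 7.90 ± 0.214 TPM. Polg2 and Mterf1a were lowest at 1.47 ± 0.153 and 0.860 ± 0.117 TPM. On the highest rows Tfam at 19.4, Ssbp1 at 14.7, Polg at 12.2 and Mterf3 at 11.3 TPM passed 10 TPM, and the others did not. Of what this ribosome holds and makes, the ribosomal RNAs mt-Rnr1 and mt-Rnr2 stood at 1411 ± 98.9 and 1315 ± 96.6 TPM in these poly-A selected libraries, and mt-Co1 at 2462 ± 138 TPM. The rows of mt-Nd3, mt-Co3, mt-Co2 and mt-Atp6 are listed at 0 in each library. The other coding rows of mitochondrial DNA examined ran from mt-Nd6 at 40.7 to mt-Nd1 at 2574 TPM. The rows at 0 are therefore not read as absence of these RNAs, and why they are at 0 was not tested.

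Between libraries the genes varied little, with a median coefficient of variation of 7.22% over the detected members and 7.88% over detected protein-coding genes. Mrpl50 varied least, at 25.3, 25.5 and 25.8 TPM. Apart from Mrpl23, the largest variation was in Mrpl52 (19.7%), Mrps28 (18.9%), Mrps24 (17.8%) and Mrps22 (17.7%). Mrps28 stood at 7.72, 7.74 and 10.6 TPM and Mrps22 at 14.5, 14.7 and 19.6 TPM, both highest in library 3, while Mrps24 stood at 9.88, 6.90 and 9.04 TPM, lowest in library 2. The sum over the 77 genes was 1148, 1070 and 1150 TPM. Of the 76 detected members 44 were lowest in library 2, or 57.9%, where 25.6% of detected protein-coding genes were, but so were 46% of detected protein-coding genes with a row of at most 2000 bases. The cytosolic ribosome (49 of 73 detected genes) and the proteasome (19 of 32) were also most often lowest in library 2, and the respiratory chain in library 3 (44 of 74).

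**Figure D4:**
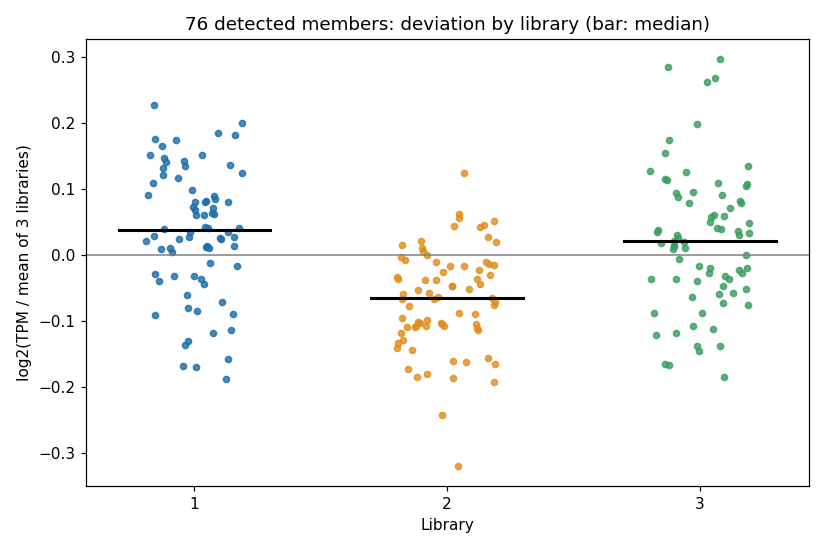
Deviation of each of the 76 detected members from its own mean over libraries, as log2 of the ratio, by library; bars are medians. Library 2 is the lowest for 44 of these genes, and its median lies below 0.

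Promoter sequences were examined because genes of this set are known to be served by factors of the ETS family and by NRF1, which bind near the start of many genes for mitochondrial proteins. RefSeq windows of build GRCm38.p6, from 250 bases before to 50 after a start, were found for 68 members (74 windows). In 53 of these 68 the nearest window starts within 50 bases of the start of the deposited row. The sequences below, 100 bases just before the RefSeq start of members with a match to the ETS core CCGGAAG (read on either strand) or to the NRF1 core (the palindrome in capitals in the sequence of Mrpl9), show how these letters sit, and capitals mark the match. The first comes from chr17:46110904-46111003 (plus strand), the second from chr19:45006443-45006542 (minus), the third from chr6:83109008-83109107 (plus), the fourth from chr13:99344686-99344785 (plus), the fifth from chr14:54426809-54426908 (plus) and the sixth, with the NRF1 core, from chr3:94443236-94443335 (plus).
Mrps18a: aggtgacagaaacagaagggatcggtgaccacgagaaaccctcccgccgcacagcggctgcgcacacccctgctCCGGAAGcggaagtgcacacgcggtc
Mrpl43: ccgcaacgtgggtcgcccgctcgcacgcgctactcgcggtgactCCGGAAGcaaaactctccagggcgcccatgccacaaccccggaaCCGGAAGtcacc
Mrpl53: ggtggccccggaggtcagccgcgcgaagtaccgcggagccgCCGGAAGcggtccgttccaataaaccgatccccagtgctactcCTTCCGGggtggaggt
Mrps27: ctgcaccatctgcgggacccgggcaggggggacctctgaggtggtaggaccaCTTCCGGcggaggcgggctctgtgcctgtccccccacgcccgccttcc
Mrpl52: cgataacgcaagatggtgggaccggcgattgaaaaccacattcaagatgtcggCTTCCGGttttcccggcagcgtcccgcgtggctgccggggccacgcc
Mrpl9: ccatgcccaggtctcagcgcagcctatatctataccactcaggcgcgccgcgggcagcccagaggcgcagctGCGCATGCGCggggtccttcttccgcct

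The ETS core was present in 26 of 74 member windows, or 35.1%, and in 13.4% of the 17444 windows of all protein-coding genes. These 26 windows belonged to 26 genes, and of the 31 matches 19 began within 100 bases before the start and 9 after it. Mrpl43 and Mrpl53 each had 2 matches before the start, in Mrpl53 on opposite strands. The looser NRF1 form, which allows any base at the sixth position of the core, was in 12 windows (16.2%, all 7.57%) and the NRF1 core in 2 (2.70%, all 1.59%), those of Mrpl9 and Mrpl39, and every core match is also a match of the looser form. The YY1 core was in 5 windows (6.76%, all 1.46%) and TATAAA in 5 (6.76%, all 9.22%). GC content was alike, with a median of 58.8% in member windows and 58.7% in all windows. Levels of members with and without the ETS core overlapped throughout, with medians of 12.3 and 12.2 TPM (26 and 42 genes). The 12 genes with the looser NRF1 form had a median of 8.09 TPM and the 56 without it 12.5 TPM, with overlapping ranges, and on the highest rows the medians were 18.3 and 19.6 TPM. A match is a description of the letters, not of binding.

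Many members lie head to head with another gene. In 20 of 77, or 26%, the start of the longest coding row had a protein-coding start on the opposite strand within 1000 bases in divergent orientation, and among all protein-coding genes 8.56% did, or 11.5% of the detected ones. The distance ran from 37 to 935 bases. A pair consisted of 2 members, Mrps11 of the small and Mrpl46 of the large subunit, with starts 53 bases apart on chromosome 7. Mrps11 stood at 12.9, 12.1 and 12.02 TPM and Mrpl46 at 12.1, 10.7 and 11.5 TPM, a difference of 0.10 ± 0.06 on the log2(TPM + 1) scale with Mrps11 the higher in 3 of 3 libraries. The stretch of 41 bases between their RefSeq starts (chr7:78783090-78783130, read towards Mrps11) held no ETS core on either strand and is printed as the DNA that lies between both genes.
Mrps11 and Mrpl46: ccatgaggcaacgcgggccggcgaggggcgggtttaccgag

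The neighbours of Mrpl43, Mrps12, Mrpl49 and Mrps27 are given here for their known roles, and were picked from the 18 after their names were seen. Mrpl43 faces Twnk, the helicase of mitochondrial DNA, 116 bases away on chromosome 19, and Mrpl43 stood at 20.4, 18.5 and 20.7 TPM against 3.76, 3.34 and 3.92 TPM for Twnk. Mrps12, of the decoding site, faces Sars2, the mitochondrial seryl-tRNA synthetase gene, 198 bases away on chromosome 7, at 13.9, 13.6 and 12.1 TPM against 3.30, 3.19 and 3.20 TPM. The member was the higher of the pair in both cases and in each library. Mrpl49 faces Fau, which encodes a cytosolic ribosomal protein, at 16.5 ± 0.243 against 13.4 ± 3.07 TPM, with Mrpl49 higher in 2 of 3 libraries. Mrps27 faces Ptcd2, of mitochondrial RNA processing, and was the lower at 10.7 ± 0.945 against 17.9 ± 0.668 TPM.

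Of the 19 pairs 7 lay within 2-fold of each other on the longest coding rows and 12 did not, and on the highest rows 4 lay within 2-fold. Of the 18 neighbours that are not members 15 were detected, with a median of 3.22 TPM, while the members beside them had a median of 13.8 TPM. Over all protein-coding genes 61.5% were detected and the median was 2.84 TPM, and over the 77 members the median was 12.2 TPM. The member was higher in 3 of 3 libraries in 13 of these pairs and lower in 3 of 3 in 4, which are those with Tcp1, Tmem63b, Ptcd2 and Mitd1. The same counts for members beside other genes were not made, so these counts do not show an effect of pairing. The order of Mrpl30 and Mitd1 rests on the row: 4.15 against 4.49 TPM on the longest coding rows, and 60.4 against 5.22 TPM on the highest. The widest gap was between Mrpl10 at 26.1 ± 0.605 and Lrrc46 at 0.278 ± 0.0430 TPM, and in the other direction between Mrpl18 at 15.7 ± 1.14 and Tcp1, a subunit of the cytosolic chaperonin, at 70.5 ± 5.06 TPM. Mrpl18 and Tcp1 have the closest starts of all pairs, 37 bases apart. These pairs and the printed promoters were chosen after their values were seen.

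**Figure D5:**
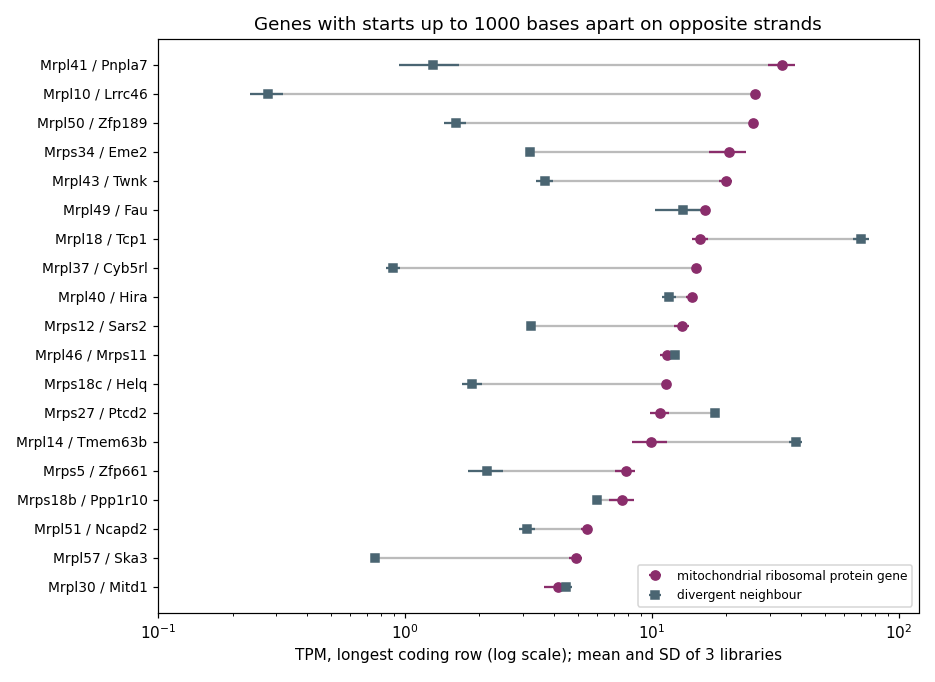
Mean and SD over 3 libraries of TPM (log scale) for each member (circle) and the gene whose start faces it (square); for the pair of 2 members the square is Mrps11. In 13 pairs the member is higher in each library, and Tcp1 and Tmem63b are the highest neighbours.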

How the data were processed

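Poly-A RNA was made into strand-specific libraries, per the labels' protocols. The values are the authors' deposited TPM for each transcript and library. The tools Trimmomatic, TopHat, Bowtie and HTSeq and the build mm10 are named per the submitters' processing notes, and the table is named for GENCODE. How strand and reads mapping to several places were handled is not given in the sources used here. Transcripts were matched without version to GENCODE M21 (83017 of 84660 rows; 47 lay elsewhere and were left out). Exons were fitted to the deposited row ends to give lengths. Dividing TPM times length by the worth of 1 read gave whole reads (tolerance 0.02) in 99.9% of 74441 rows whose ends are equal in both annotations, and for all 77 members. Reads were used for depth only: the fullest rows of all genes held 40.6, 36.4 and 35.5 M. Spread was computed on log2(TPM + 1), where ratios of low genes come out too small. The share of 50-base words was computed against M21 transcripts of other loci, either strand; unannotated sequence was not searched. Differences were taken within libraries and tested by an exact two-sided sign-flip permutation. The statistics were tested on simulated data. Python 3.11.15, pandas 2.3.3, NumPy 2.4.6 and Matplotlib 3.10.9 were used.

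Members and lists were chosen with earlier results of these data known. Named genes are the 6 highest and 6 lowest of each subunit, those under 1 TPM, the 5 most variable, the 5 with the largest ratio of highest to longest row, Mrpl12, Mrps36, Mrps30, the Mrps18 genes, the 5 subunits with other symbols and the 2 highest and 2 lowest of each other list. Others were named after their values were seen. Of the listed genes Trmt61b was not analysed here.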

Additional observations from a re-analysis of the deposited data

How the results depend on the processing

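Alternatives were the highest row, the sum of rows, each library left out, the median over libraries, a pseudocount of 0.1, scaling to nuclear protein-coding genes, other detection limits, only genes of at least 1 TPM, only members with at least 90% unique words and membership by structure (without Mrps36, with the 5 subunits of other symbols). Rows of at most 2000 bases, unique words in all lists, leaving out Mrpl23 and the SD difference of the subunits were added after seeing the data. Sums may count a read once for each row that holds it, which was not tested. No paired analysis was possible because there is 1 group. The smaller SD than those of the respiratory chain and cytosolic ribosome, the greater SD of the large subunit, and the lower median than those of the respiratory chain and proteasome kept their direction in every alternative run. The median log2 level of 3.72 was 4.34 on the highest row, 5.43 with sums, 3.62 with the pseudocount, 5.88 after scaling and 3.96 with short rows, and 3.69 to 3.73 with a library left out. The SD of 0.908 was 0.868 on the highest row, 1.32 with sums, 1.07 with the pseudocount, 1.04 after scaling, 0.862 with short rows, 0.814 with unique words and 0.823 both without Mrpl23 and above 1 TPM. Scaling multiplies every gene of a library by 1 factor, so after it 76 members in place of 48 and 53.8% of all protein-coding genes in place of 26.4% reached 10 TPM. The pseudocount and the scaling move the median and SD by arithmetic. The scaling factors of 4.70 to 4.87 raise the median directly, and both alternatives change the weight of the number added before the logarithm. Among members the limit of 1 TPM leaves out Mrpl23 alone. The cause of the other moves was not tested.

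The subunit median difference of -0.004 turned to 0.0038 with the median over libraries, 0.038 above 1 TPM and 0.17 with short rows, was -0.16 on the highest row and -0.53 with sums, and ran from -0.016 to 0.012 with a library left out. Bacterial counterparts minus mitochondria-specific genes, 0.04, turned to -0.084 with unique words, -0.20 with short rows and -0.077 by structure, was 0.79 with sums, and ran from -0.00084 to 0.088 with a library left out. The median difference from the cytosolic ribosome, -0.20 ± 0.16, turned to 0.10 ± 0.18 on the highest row, 0.11 ± 0.19 with sums and 0.092 ± 0.18 with short rows. It was -2.73 with unique words in all lists. The SD difference from the proteasome, -0.002, turned to 0.055 on the highest row, 0.12 with sums, 0.14 with the pseudocount, 0.10 after scaling, 0.011 by structure and 0.34 with unique words in all lists, and ran from -0.014 to 0.010 with a library left out.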
